A study of Mus musculus with 6 samples.

Results

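The 8 genes described here encode the T-box and terminal effector transcription factors of mouse iNKT1 cells, and they were taken by name from a normalised read count table of 12942 genes. They are the T-box factors Tbx21 and Eomes, the zinc-finger repressors Zeb1 and Zeb2, the Blimp-1 gene Prdm1 with its relative Zfp683, the homeodomain-only gene Hopx and the helix-loop-helix gene Bhlhe40. The cells were liver iNKT1 cells, a T cell lineage restricted by the lipid-presenting molecule CD1d, sorted as binding the CD1d tetramer and carrying YFP. The cKOHet group had the genotype Tbx21Cre Ets1F/F Tbx21F/+ Rosa26-YFP+, with both Ets1 alleles and 1 Tbx21 allele floxed. The control group was Tbx21Cre Rosa26-YFP+, without floxed alleles. Both groups carried the Tbx21 Cre and the Rosa26 YFP reporter, so the sort kept cells in which that Cre had acted. Each group had 3 libraries, numbered 1, 2 and 4, and the sources used here give neither age nor sex of the mice. Cells with floxed Ets1 alone, and thymic cells, which the series design names, were not analysed here, so the part of the single floxed Tbx21 allele cannot be told apart from that of Ets1.

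T-bet, the product of Tbx21, is the T-box factor that iNKT1 cells need, and it drives the interferon gamma and cytotoxic programme of type 1 lymphocytes. Its relative Eomes shares targets with it in NK and CD8 T cells. Zeb2 acts downstream of T-bet in terminal differentiation of mouse CD8 T and NK cells, where Zeb1 is linked to the memory state, while Blimp-1 and Hobit (Zfp683) repress genes of tissue exit in resident lymphocytes. Hopx is a small homeodomain protein found in Th1 effector cells, and Bhlhe40 is a repressor induced by activation and shared with the circadian clock.

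Because Ets1 was the deleted factor, the promoters of 4 members that had a RefSeq window on GRCm38.p6, from 250 bases before to 50 after an annotated start, are shown with capitals marking the letters searched. These were 2 forms of the ETS core (CCGGAA and AGGAAG), the core of the T-box half-site (GTGTGA), the E-box bound by Zeb factors (CAGGTG) and the E-box bound by Bhlhe40 (CACGTG), each on both strands. Binding was not measured.
Tbx21, chr11:97115282-97115581, minus strand: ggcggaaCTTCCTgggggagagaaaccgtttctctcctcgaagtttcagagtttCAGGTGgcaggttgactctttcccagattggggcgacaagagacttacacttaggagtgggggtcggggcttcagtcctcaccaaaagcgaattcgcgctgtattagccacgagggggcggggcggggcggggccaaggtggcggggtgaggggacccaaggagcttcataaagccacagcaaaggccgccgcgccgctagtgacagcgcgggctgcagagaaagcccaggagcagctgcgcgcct
Zeb2, chr2:45113230-45113529, minus strand, 1 of 4 annotated windows: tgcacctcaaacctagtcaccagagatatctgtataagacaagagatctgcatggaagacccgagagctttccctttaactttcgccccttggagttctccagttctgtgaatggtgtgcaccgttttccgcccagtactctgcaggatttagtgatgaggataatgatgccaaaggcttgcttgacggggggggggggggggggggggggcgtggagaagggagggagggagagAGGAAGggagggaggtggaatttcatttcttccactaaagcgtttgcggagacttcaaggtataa
Prdm1, chr10:44458699-44458998, minus strand: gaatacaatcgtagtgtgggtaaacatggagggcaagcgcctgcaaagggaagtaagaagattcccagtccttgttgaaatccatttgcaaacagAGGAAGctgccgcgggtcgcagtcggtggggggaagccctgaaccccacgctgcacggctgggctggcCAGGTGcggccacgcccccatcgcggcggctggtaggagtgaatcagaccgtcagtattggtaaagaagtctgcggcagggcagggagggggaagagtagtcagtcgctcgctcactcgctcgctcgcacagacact
Hopx, chr5:77115074-77115373, minus strand, 1 of 2 annotated windows: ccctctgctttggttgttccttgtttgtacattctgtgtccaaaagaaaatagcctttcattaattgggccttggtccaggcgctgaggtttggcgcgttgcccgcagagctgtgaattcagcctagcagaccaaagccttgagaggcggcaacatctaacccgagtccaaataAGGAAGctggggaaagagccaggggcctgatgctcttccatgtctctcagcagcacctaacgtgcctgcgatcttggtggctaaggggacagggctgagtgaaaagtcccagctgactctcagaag
The 4 printed windows held the AGGAAG form or its complement. It lay 243 bases upstream of the start in Tbx21, 15 in Zeb2, 155 in Prdm1 and 76 in Hopx. All windows without it, 1 of Zeb2, 1 of Hopx and that of Eomes, were left unprinted. That all 4 hold it thus follows from which windows were printed. Over the 9 windows used, from 5 members, 6 held the AGGAAG form or its complement, against 35.4% of all 32851 windows. Of the Zeb2 windows 2 overlap and hold the same site, so the 6 windows are not 6 separate sites. The CCGGAA form and the T-box core were in 0 of the 9 windows, against 14.9% and 14.5% of all windows. The E-box CAGGTG was in the Tbx21 and Prdm1 windows, and in 20.2% of all windows. The CACGTG form was in the other Hopx window, and in 7.15% of all windows. Eomes had a window without any of these letters, and windows of Zeb1, Zfp683 and Bhlhe40 were not used here.

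The normalised read counts of a library summed to between 4996523 and 5219483. Of 11226 genes that reached a value of 10 in at least 3 of the 6 libraries, 2407 were called with limma at an adjusted p under 0.05. Ets1 was at 462, 596 and 441 in cKOHet libraries and at 7391, 6255 and 7787 in controls, lower in the group whose labels carry the floxed alleles. The 12 markers of T and iNKT cells, among them Cd3e, Zbtb16 and Cxcr6, were all tested and summed to 49250 to 53410 in cKOHet libraries and 56870 to 63330 in controls. Of these, 2 were called higher (Cd247 and Zbtb16), 4 lower (Trbc1, Trbc2, Il2rb and Cxcr3, with log2 changes of -0.77, -1.20, -0.72 and -0.51) and 6 neither way. Over all genes tested, 11.5% were called higher and 9.97% lower. Xist, the transcript of the inactive X chromosome, was near 0 in replicate 4 of each group and between 4337 and 5657 in the other 4 libraries. In both groups the column of replicate 1 joins a pair of sample names that the labels do not explain. In these bulk libraries, fewer cells of a type and less RNA per cell cannot be told apart.

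All 8 factors passed the filter, and 5 of them (62.5%) were called, against 21.4% of all genes tested. Zeb2, Prdm1 and Eomes rose in cKOHet cells (3 of 8, against 11.5% of all genes higher), and Hopx and Bhlhe40 fell (2 of 8, against 9.97% lower). Tbx21, Zeb1 and Zfp683 did not pass the test. The groups did not overlap at 5 members, Tbx21 among them and Eomes not, against 35.8% of all genes. In 2 of the 5 the cKOHet libraries lay above (19.1% of all genes) and in 3 below (16.7%). The median absolute log2 fold change was 0.89 over the 8 members and 0.30 over all genes tested. Zeb2 and Eomes reached a value of 10 in 2 and 1 of the control libraries and in all 3 cKOHet libraries, so they would not have passed the filter on the control libraries alone.

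**Figure D1:**
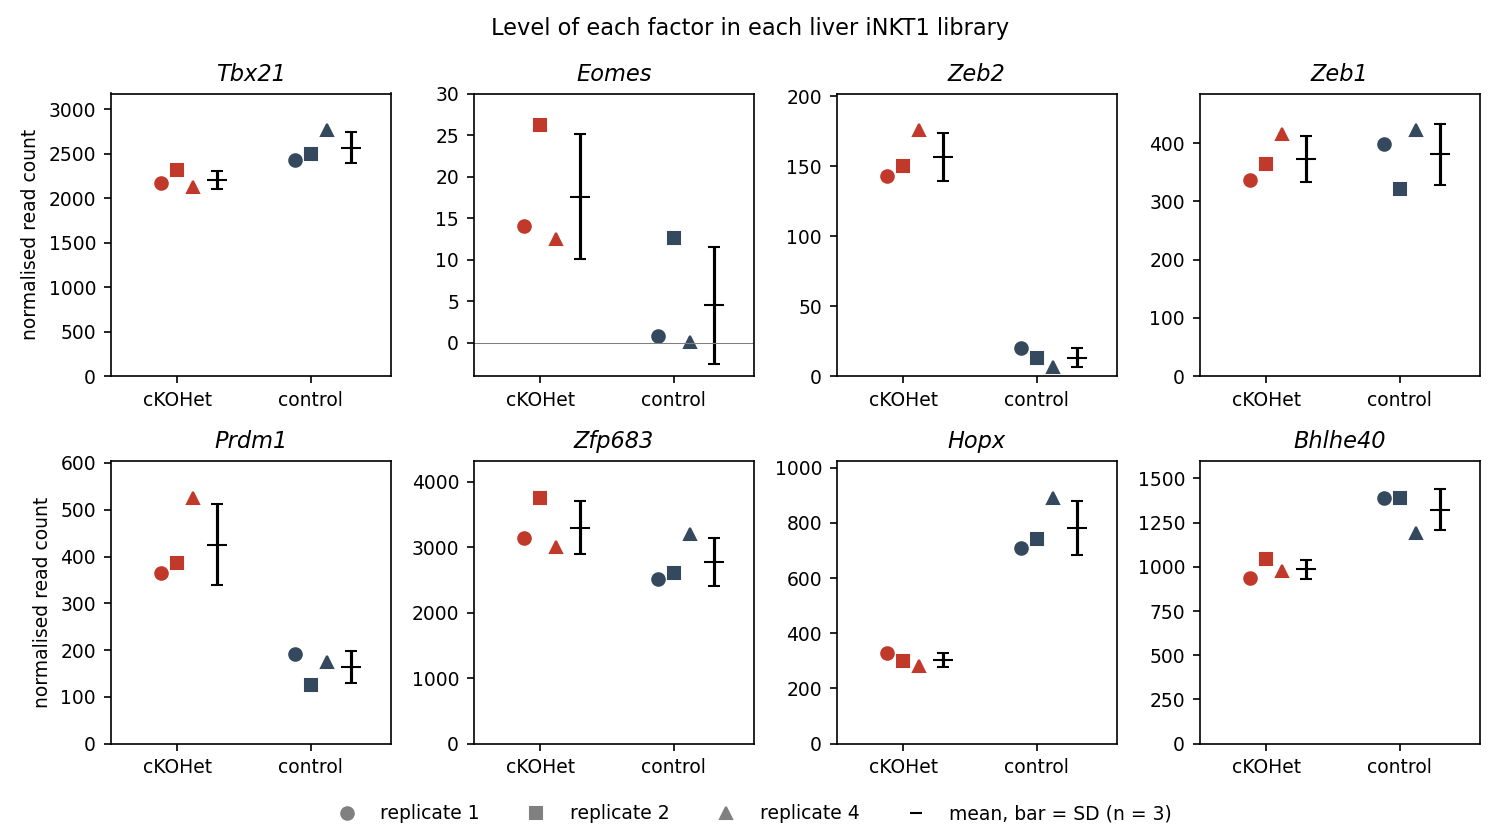
Normalised read count of each of the 8 factors (vertical axis, from 0 except for Eomes) in the 3 cKOHet and 3 control libraries, with the mean and SD beside the points. Zeb2 and Prdm1 lie higher in every cKOHet library, and Hopx, Bhlhe40 and Tbx21 lower, Tbx21 by little and without being called. Eomes, Zeb1 and Zfp683 overlap between the groups.

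Tbx21 (ENSMUSG00000001444, mm10 chromosome 11, 97098071 to 97115331) was nearly level despite its floxed allele. Its normalised count was 2174, 2316 and 2127 in cKOHet libraries, against 2434, 2504 and 2765 in controls. Every cKOHet library was below every control, but by little. The means were 2206 ± 98.5 and 2568 ± 174 (SD, n = 3), and the log2 fold change on the log2(value + 1) scale was -0.22 (SE 0.11, 95% interval -0.46 to 0.02, limma adjusted p = 0.196). The interval does not reach -1, the value of a 2-fold lower level. The counts cover whole genes, so transcripts with and without a deleted exon cannot be told apart.

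Eomes (ENSMUSG00000032446, chromosome 9, 118478212 to 118486132), the other T-box factor, was barely detected. It was at 14.1, 26.2 and 12.5 in cKOHet libraries and listed at 0.81, 12.6 and 0.07 in controls. Control replicate 2 lay within the cKOHet range, and the other controls were near 0. Its log2 fold change was 2.57 (SE 0.83, limma adjusted p = 0.039), a call that ended without any single library except control replicate 2 (adjusted p 0.0767 to 0.149). The size of the change was poorly fixed: the means of 17.6 and 4.51 differ 3.90-fold, and the fitted log2 change was 3.01 with 0.5 and 1.44 with 5 in place of 1 as the value added before the logarithm. It was 3.67 without control replicate 2 and 1.83 without control replicate 4. Per kilobase of exon, the level of Eomes was 4.24 ± 1.81 in cKOHet libraries, against 886 ± 39.6 for Tbx21 in the same libraries. Thus the low level of Eomes held in both groups, at percentiles 6.0 (cKOHet) and 1.4 (control) of tested genes, while Tbx21 stood at 97.8 and 98.1. Of the other 15 T-box genes listed, 2 were tested, Mga and Tbx6, and neither was called (adjusted p = 0.422 and 0.65).

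Zeb2 (ENSMUSG00000026872, chromosome 2, 44983632 to 45117395) showed the largest change among the 8 factors. Its count was 143, 150 and 176 in cKOHet libraries, against 20.1, 12.8 and 6.47 in controls. The cKOHet libraries were close to each other and far above each control. The means of 156 ± 17.2 and 13.1 ± 6.84 differed 11.9-fold, and the log2 fold change was 3.60 with an SE of 0.38 (limma adjusted p = 4.94e-06). Over all 22 alternative settings the log2 change of Zeb2 lay between 3.11 and 4.01 and stayed called.

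Zeb1 (ENSMUSG00000024238, chromosome 18, 5591860 to 5775467), its homologue, was level. It was at 337, 363 and 415 in cKOHet libraries and at 398, 322 and 422 in controls, so that the groups overlapped. Its log2 fold change was -0.03 (95% interval -0.35 to 0.29, limma adjusted p = 0.927). As a result the ratio of Zeb2 to Zeb1, per kilobase of exon, was 0.218, 0.213 and 0.218 in cKOHet libraries and 0.0261, 0.0205 and 0.00789 in controls. Zeb1 was still the more abundant of the pair in every library. Per kilobase it exceeded Zeb2 4.62 ± 0.06 times in cKOHet libraries and 38.4, 48.9 and 127 times in the controls. The size of these ratios depends on the length used, the union of all annotated exons (10266 bases for Zeb1 and 19942 for Zeb2). By count alone the cKOHet means were 372 for Zeb1 and 156 for Zeb2.

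Some markers of cells that also express Zeb2 or Eomes were higher in cKOHet libraries, and others were not. Over all genes tested, 11.5% were called higher and 9.97% lower. Of 13 myeloid and Kupffer cell markers 6 were tested, of which Itgax, Csf1r and Clec4f rose and 3 were not called, Lyz2 and Cd68 among them. The summed level of the 10 markers in the table was 294 to 300 in cKOHet libraries, against 50.4 to 118 in controls, and Itgax gave 98.7 to 152 and 13.9 to 22.3 of it. The macrophage marker Adgre1 was at 1.79 to 16.1 in cKOHet libraries and 0.04 to 2.72 in controls. Of 10 NK cell and ILC1 markers 8 were tested, of which Klra8, Itgam and Tyrobp rose and 5 were not called, with a sum of 417 to 550 in cKOHet libraries, against 266 to 359 in controls. Klra8 passed the filter only through the cKOHet libraries. Ncr1, which encodes the NK receptor NKp46, was at 5.52 to 7.05 in cKOHet libraries and 8.45 to 9.47 in controls. Of the CD8 T cell pair Cd8a rose and Cd8b1 was not called, with sums of 252 to 1693 in cKOHet libraries and 23.7 to 42.2 in controls. Of 10 liver endothelial and stellate cell markers 1 was tested, Pecam1, which fell. It was at 43.5 ± 7.48 in cKOHet libraries, against 196 ± 23.9 in controls (log2 -2.16, limma adjusted p = 8.44e-06). The part of these cells in the levels of Zeb2 and Eomes was not tested.

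**Figure D2:**
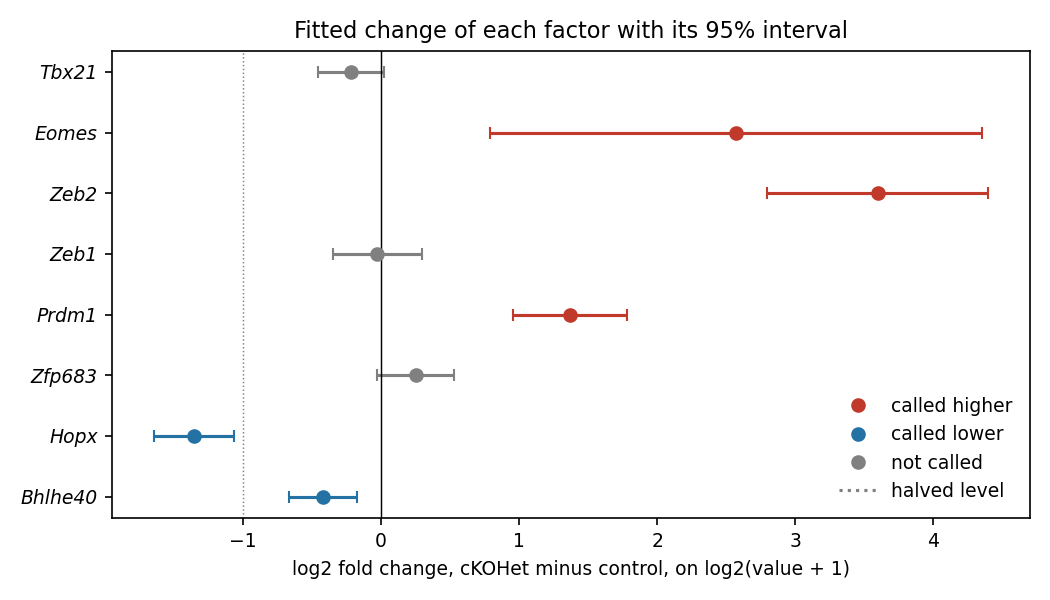
Log2 fold change of each factor, cKOHet minus control (horizontal axis, on the log2(value + 1) scale), with its 95% interval from limma; the dotted line marks a 2-fold lower level. Zeb2 at 3.60 and Prdm1 at 1.37 lie to the right of 0, Hopx at -1.35 to the left, and the Tbx21 interval ends short of the dotted line.

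Prdm1 (ENSMUSG00000038151, chromosome 10, 44437177 to 44528501), which encodes the repressor Blimp-1, rose. It was at 365, 387 and 525 in cKOHet libraries, against 192, 126 and 176 in controls. Every cKOHet library was above every control, with replicate 4 the highest. The means of 426 ± 87.2 and 164 ± 34.5 differed 2.59-fold, which is 1.37 on the log2(value + 1) scale (SE 0.19, limma adjusted p = 9.41e-05).

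Zfp683 (ENSMUSG00000049410, chromosome 4, 134053838 to 134058996), which encodes the related Hobit, had the highest level per kilobase of the 8 factors in both groups. Its count was 3138, 3754 and 2998 in cKOHet libraries and 2520, 2608 and 3200 in controls, so that control replicate 4 lay inside the cKOHet range. The log2 fold change of 0.25 (95% interval -0.03 to 0.53) did not pass the test (limma adjusted p = 0.211). Per kilobase, Zfp683 exceeded Prdm1 32.6, 36.8 and 21.6 times in cKOHet libraries, against 49.8, 78.7 and 69.1 times in controls. These ratios did not overlap between the groups. Of the 15 other genes of the Prdm list, 7 were tested and 0 were called by limma (0 also at an unadjusted p under 0.05), Prdm2 being the nearest (log2 -0.24, adjusted p = 0.262).

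Hopx (ENSMUSG00000059325, chromosome 5, 77086988 to 77115121) fell. It was at 329, 301 and 281 in cKOHet libraries, against 708, 744 and 891 in controls. The highest cKOHet library stood well below the lowest control. The means of 304 ± 24.3 and 781 ± 97.0 differed 2.57-fold, and the fitted log2 change was -1.35 with an SE of 0.14 (limma adjusted p = 3.44e-06). Its antisense gene Hopxos, which shares exonic positions with it, fell as well (11.3 ± 3.92 in cKOHet and 33.8 ± 5.71 in control libraries, log2 -1.54, adjusted p = 0.0181). The sources used here do not state whether counting used strand, so reads from this pair cannot be told apart. The antisense genes annotated over Eomes, Zeb2 and Bhlhe40 are not among the 12942 genes.

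Bhlhe40 (ENSMUSG00000030103, chromosome 6, 108660629 to 108666925) had the smallest change that was called. It was at 937, 1045 and 975 in cKOHet libraries and at 1388, 1390 and 1190 in controls. The groups lay close together without overlapping. The means were 985 ± 54.7 and 1323 ± 115, and the log2 fold change was -0.42 (SE 0.12, limma adjusted p = 0.0166). The call ended without cKOHet replicate 1 or control replicate 1 or 2 (adjusted p = 0.0519, 0.0814 and 0.0714), while the log2 change stayed at -0.39, -0.39 and -0.38.

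**Figure D3:**
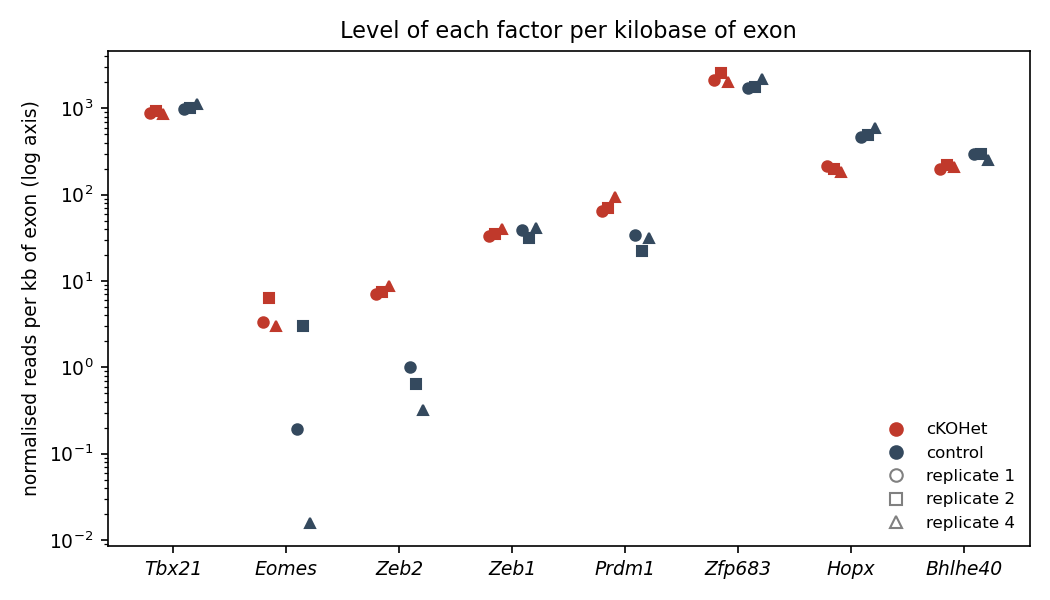
Normalised reads per kilobase of exon (vertical log axis) for the 8 factors in each library, cKOHet left of control. Zfp683 and Tbx21 are the most abundant in both groups and Eomes and Zeb2 the least; Eomes values below 1 stand for libraries in which it was listed near 0.

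In order of level per kilobase of exon, cKOHet libraries ran from Zfp683 (2241 ± 273) through Tbx21, Bhlhe40 (209 ± 11.6), Hopx (200.4 ± 16.0), Prdm1 (76.3 ± 15.6), Zeb1 (36.2 ± 3.86) and Zeb2 (7.84 ± 0.86) to Eomes. Bhlhe40 and Hopx, neighbours in that order, did not differ beyond their spread. In controls the order was Zfp683, Tbx21, Hopx (515 ± 63.9), Bhlhe40 (281 ± 24.4), Zeb1 (37.1 ± 5.09), Prdm1 (29.5 ± 6.19), Eomes and Zeb2. There Zeb1 and Prdm1 lay within their spread, as did Eomes (1.08 ± 1.70) and Zeb2 (0.66 ± 0.34). Prdm1 thus stood above Zeb1 in each cKOHet library and below it in each control.

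Genes linked to the 8 factors moved in both directions, and each list below was counted without the 8 factors themselves. The lists share genes, so their counts are not separate observations. For example, Gzmb, Cx3cr1, Prf1 and Ly6c2 are counted both as terminal effector genes and as T-bet targets. Il2rb and Il12rb2 are counted both as T-bet targets and as upstream of T-bet. Of 17 terminal effector genes 14 were tested, of which 9 rose, 2 fell and 3 were not called. The median log2 change was 1.96, against 0.01 over all genes tested, of which 11.5% were called higher and 9.97% lower. Of the 9, 1 (Cx3cr1) passed the filter only through the cKOHet libraries. Itgam, 1 of the 9, is also among the NK cell markers, and it stood highest in cKOHet replicate 2 at 183, the library in which the granzyme gene Gzma (2719) and Cd8a (1657) were highest too. Itgam, Gzma and Cd8a were singled out after their values were seen. Eomes was highest in cKOHet replicate 2 as well, at 26.2, and was not called without it (limma adjusted p = 0.145). The part of NK and CD8 T cells in the list and in Eomes was not tested. The serine protease gene Gzmb rose, as did Fgl2, an immunoregulatory fibrinogen-like protein (10637 ± 723 in cKOHet and 3864 ± 188 in control libraries, log2 1.46, limma adjusted p = 5.12e-07). Rap1gap2, a GTPase-activating protein for Rap1, was at 267, 254 and 278 in cKOHet libraries, against 24.7, 37.0 and 16.0 in controls. Ly6c2, a surface protein of memory and effector cells, fell to 524 ± 186 in cKOHet libraries, against 2452 ± 384 in controls, and the other gene that fell was the perforin gene Prf1 (log2 -2.72, chosen after its values were seen). Of 18 memory precursor genes 15 were tested, of which 0 rose, 7 fell and 8 were not called (median -0.41). The transcription factor genes Klf3, Lef1 and Foxp1 fell, with log2 changes of -1.48, -1.57 and -1.38. Il6st, the gp130 receptor chain, fell to 87.0 ± 13.1 in cKOHet libraries, against 231 ± 26.0 in controls (log2 -1.40, adjusted p = 0.000112).

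Of 27 genes reported as T-bet targets 25 were tested, and 11 rose, 6 fell and 8 were not called (median 0.45). Cx3cr1, 1 of the 11, passed the filter only through the cKOHet libraries. For this list and the next, the shares over all genes tested were 11.5% called higher and 9.97% lower. Gzmb, the cytokine gene Ifng and the chemokine gene Ccl5 rose by log2 2.71, 2.14 and 2.19, and the log2 change of Ly6c2 was -2.27. Of 27 receptors, kinases and factors known to act upstream of T-bet 25 were tested, of which 5 rose, 7 fell and 13 were not called (median 0.02). Ifngr1, the ligand-binding chain of the interferon gamma receptor, was at 9938, 7956 and 9453 in cKOHet libraries, against 2406, 2850 and 2373 in controls (log2 1.84, SE 0.13, limma adjusted p = 9.91e-08). Runx3, a partner of T-bet, rose by log2 0.75. Il12rb1, a chain of the interleukin 12 receptor, fell to 557 ± 31.1 in cKOHet libraries, against 982 ± 120 in controls (log2 -0.81, adjusted p = 0.000243). Notch1 fell to 339 ± 89.6 in cKOHet libraries, against 1152 ± 70.2 in controls (log2 -1.79, adjusted p = 1.64e-06).

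**Figure D4:**
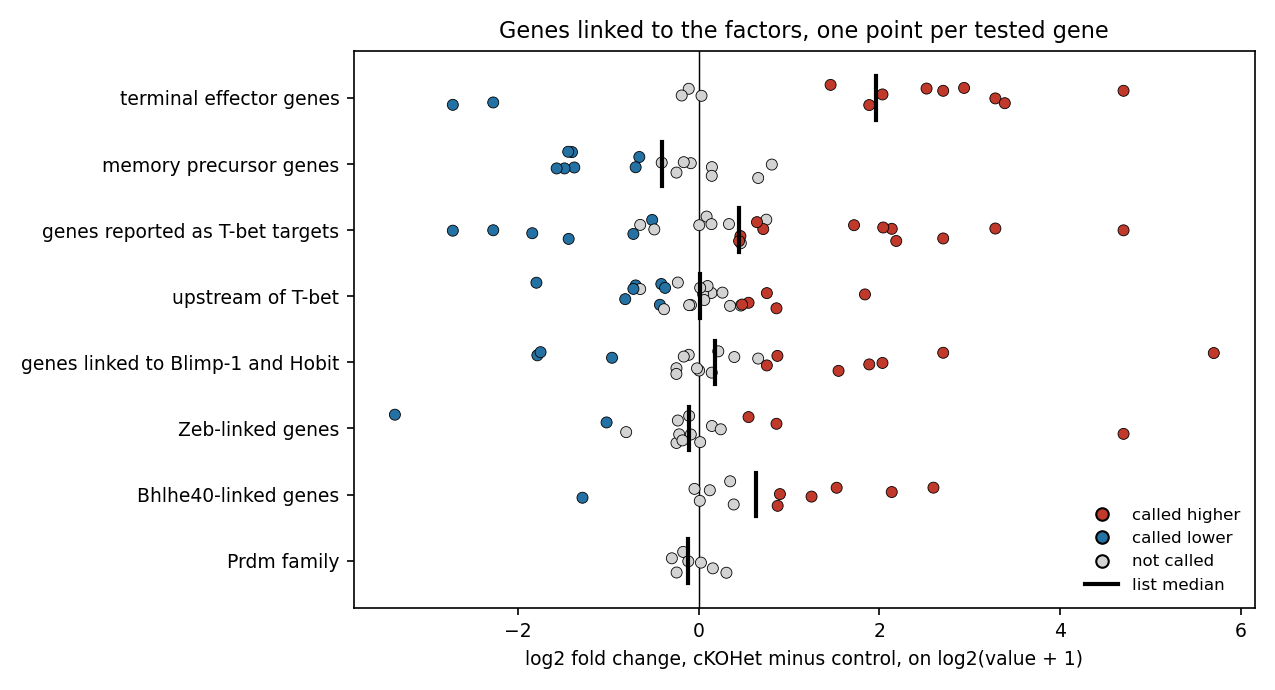
Log2 fold change, cKOHet minus control (horizontal axis), of each tested gene in 8 lists linked to the factors, which are themselves left out; the black bar is the list median and the vertical jitter has no meaning. Terminal effector genes centre at 1.96 and memory precursor genes at -0.41, with members on both sides in most lists.

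Of 25 genes linked to Blimp-1 and Hobit 20 were tested, of which 7 rose, 3 fell and 10 were not called (median 0.18). Over all genes tested, 11.5% were called higher and 9.97% lower. S1pr1, the tissue exit receptor that Blimp-1 and Hobit are known to repress in mouse, rose by log2 2.03 in the same libraries in which Prdm1 rose. Itgae, the integrin chain CD103, and Ahr, a ligand-activated factor of resident lymphocytes, rose by 5.70 and 1.55. Itgae was at 161, 1097 and 254 in cKOHet libraries, against 3.53, 8.56 and 6.47 in controls, so that it passed the filter only through the cKOHet libraries, and its change was 4.89 without cKOHet replicate 2. Of 23 Zeb-linked genes 15 were tested, of which 3 rose, 2 fell and 10 were not called (median -0.10). The shares over all genes tested were again 11.5% higher and 9.97% lower. Cx3cr1, a chemokine receptor of terminal effector cells, was at 76.5, 132 and 127 in cKOHet libraries, against 8.14, 6.45 and 0.10 in controls. It too passed the filter only through the cKOHet libraries. Tgfbr1, a chain of the TGF-beta receptor, rose (415 ± 15.9 in cKOHet and 229 ± 27.7 in control libraries, log2 0.86, limma adjusted p = 0.000557), and Smad7, an inhibitor of that pathway, fell (97.2 ± 9.59 and 199 ± 31.0, log2 -1.02, adjusted p = 0.00179). Cd4, the coreceptor gene, fell by 3.36 on the log2 scale.

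Of 15 Bhlhe40-linked genes 12 were tested, of which 6 rose, 1 fell and 5 were not called (median 0.63). The shares over all genes tested were 11.5% higher and 9.97% lower. Several genes of this list belong to the circadian clock, and they did not move together. The clock genes Nr1d1, Clock, Dbp and Cry1 rose, while Cry2 fell (log2 -1.29, limma adjusted p = 0.023). Arntl, Per1, Per2 and Nr1d2 were not called. Cry1, Cry2 and these uncalled genes were named after their values were seen. Nr1d1, the clock repressor REV-ERB alpha, was at 534, 350 and 469 in cKOHet libraries, against 77.4, 95.1 and 51.9 in controls (log2 2.60, SE 0.23, limma adjusted p = 9.78e-07). Clock, an activator of the same loop, rose to 326 ± 30.1 in cKOHet libraries, against 115 ± 33.3 in controls (log2 1.53). Dbp, an output gene of the clock, rose to 155 ± 24.6, against 66.5 ± 20.4 in controls (log2 1.25, adjusted p = 0.00279). The sources used here do not state at what time of day the cells were taken.

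Finally, for each factor the 2 protein-coding genes with the most similar pattern over the 6 libraries were taken by Pearson's r on the log2 scale, a description that rests mostly on the difference between the groups where the factor changed. Zeb2 was followed most closely by Grap2, an adaptor of T cell receptor signalling (r = 0.998), and Csgalnact2 (0.997). For Prdm1 these were Pi4ka (0.997) and Zhx1 (0.997), for Hopx Nrros (0.999) and the folate receptor-like gene Izumo1r (0.998), and for Bhlhe40 Gdf11 (0.993) and Txndc16 (0.991). Those of the factors that were not called were Pbxip1 (0.998) and Tesc (0.997) for Tbx21, Slain1 (0.994) and Armcx2 (0.984) for Zeb1, and Dyrk1b (0.992) and Gm2a (0.986) for Zfp683. Naxd (0.991) and Asl (0.986) were nearest to Eomes.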

How the data were processed

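Per the labels' protocols, an RNeasy mini kit gave the RNA and the Ovation Ultralow kit the libraries. Trimmomatic 0.33, STAR, HTSeq 0.6.1, DESeq2 and the mm10 build are named in the submitters' processing notes; the sources used here give no settings, annotation release, strand or normalisation method. The authors deposited 1 table of normalised read counts, a signal per gene that is not whole. Low values lie in uneven bands near whole reads, and the sources used here do not state the original depth. Symbols, positions and exon lengths came from GENCODE M21 (GRCm38), which named 12870 of 12942 identifiers, and promoters from RefSeq (GRCm38.p6). An exon length is the union of all annotated exons of a gene, not the length of an expressed transcript.

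The test was limma (version 3.58.1, under R 4.3.3) on log2(value + 1), comparing cKOHet with control over genes that reached 10 in 3 or more libraries (mean-variance trend, Benjamini-Hochberg over all 11226 genes). The added 1 shrinks the change of low genes, while the fit averages logarithms, so a fitted change can still exceed the ratio of the means, as for Eomes and Cx3cr1. The procedure was run on simulated counts with 1 fixed dispersion and no library effects. That run therefore does not measure error rates in these normalised values. The series calls the replicates independent without naming mice, so the p-values rest on a spread between libraries that may be technical. With 3 libraries against 3, an exact permutation test could not fall below 0.1 and none was run. The members and lists were chosen with earlier results of these data known, so counts over them are descriptions. Named were the members, Ets1, up to 4 genes per list with the smallest adjusted p, the 2 genes most like each member and genes overlapping a member; single cell type markers were picked after their values were seen. Alternatives covered pseudocount, filter, scaling, variance model, library weights, a replicate block, low Xist, threshold and each library left out; the tested genes stayed the same in the last.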

Additional observations from a re-analysis of the deposited data

How the results depend on the processing

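Over 22 alternative settings, 0 results reversed, where a change of sign counted only if the gene was called in either fit. Zeb1, which was never called, did change sign, with log2 changes from -0.14 to 0.08. Across the 22 settings 2 to 3 members were called higher and 1 to 2 lower. The number called lower was 1 without the mean-variance trend, at an adjusted p under 0.01 and in replicates 2 and 4 alone, whose columns carry a single name. Leaving out 1 library gave 2 to 3 members higher, 1 to 2 lower and 1883 to 2207 genes called in all, against 2407; at an adjusted p under 0.01 the last was 1476. The members lost in these settings were Bhlhe40, Eomes or both. Eomes was called neither in the libraries with high Xist alone (adjusted p = 0.195, log2 2.03) nor in replicates 2 and 4 alone (0.177, log2 2.33), both settings chosen after seeing the data, and it did not pass a filter of 50. Zeb2, Prdm1 and Hopx were called in all 22 settings, and Tbx21, Zeb1 and Zfp683 in none. Over the 55 named genes, 38 of 1207 values lost their call and 1 gained one (Prdm2 without cKOHet replicate 4, adjusted p = 0.0427); the cause was not tested. Deviations of libraries with the same number correlated at 0.055 to 0.092, against -0.12 to 0.029 for other pairs. These correlations were low, but each library correlated best with its own number, so pairing by number cannot be dismissed. The main fit did not use it. A replicate block called 2412 genes and the same number of members. The original depth is not stated, and the low values of Eomes and of Zeb2 in controls limit how well their fold changes are known.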
